A study of Mus musculus with 3 samples.

Results

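Glutathione, the main soluble thiol of the cell, is built from glutamate, cysteine and glycine, and activated T cells need it to keep the peroxides of rapid growth in check. The 10 genes described here are the rows whose symbol is Gclc, Gclm, Gss, Gsr, Gpx1, Gpx4, Txnrd1, Srxn1, Hmox1 or Nqo1, a list of glutathione enzymes and of genes known to respond to the transcription factor NRF2. They are 10 of 23282 gene rows, none of them repeated, and all 10 were among the 12770 rows that held enough reads to be tested. The rule used symbols and no measured value.

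The cells were CD4 T lymphocytes of C57BL/6 mice (substrain J in the methods of the study), taken from spleen and lymph nodes and stimulated for 72 h by antibodies against CD3 and CD28 (2 µg/ml each) in 3 media. CM was complete RPMI with serum. For DM, an RPMI base that lacks amino acids was combined with dialyzed serum, in which nutrients are reduced but not absent, and for DM+Met 30 µM methionine was added to DM. DM was therefore low in amino acids and not free of methionine. All 3 groups were activated, so no resting cells enter any comparison. Each medium had 2 libraries, which the study describes as biologically independent, and 6 libraries were compared in all. Nothing in the labels says whether the libraries of a medium came from separate mice or cultures, so p-values measure only the spread between these libraries, which may be technical.

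Glutathione is made in 2 steps. Glutamate-cysteine ligase, with its catalytic subunit Gclc and its modifier subunit Gclm, performs the rate-limiting step, and glutathione synthetase (Gss) adds glycine. Methionine can supply cysteine through transsulfuration in cells that run that pathway. NRF2, encoded by Nfe2l2, is held for degradation by KEAP1 in unstressed cells and otherwise binds antioxidant response elements near genes such as Gclc, Gclm, Txnrd1, Srxn1, Hmox1 and Nqo1, while BACH1 represses an overlapping set.

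Sequencing depth was 8504775 to 12377191 reads per library, with 12636 to 14396 rows read. The row of the ribosomal RNA precursor, Rn45s, held a mean share of 17.8% ± 3.25 (SD, n = 2) of the reads of DM+Met, against 31.98% ± 1.33 for CM and 37.7% ± 0.780 for DM. Levels are given as CPM, reads relative to a common library size after the authors' TMM scaling, and Rn45s is left out in an alternative scaling below. DM library 1 stood somewhat apart, since DM library 2 correlated more closely with the DM+Met libraries (r = 0.947 and 0.940 across rows) than with DM library 1 (r = 0.919). The T cell identity of the samples was checked against 8 markers, all of which were read in every library. Cd4, the coreceptor that defines the sorted cells, stood at 162 to 278 CPM and the summed markers at 1586 to 2103 CPM. Against CM, Cd5 and Cd3g were called higher and Cd28 lower in DM, and Cd5 higher in DM+Met. Cd5 in DM kept its call only without DM library 1 or 2, and the other 3 calls were lost without any one library of the media compared. In bulk samples, fewer cells of a type and less RNA per cell cannot be told apart.

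To show the DNA that these genes present to NRF2, promoter windows of 300 bases (250 before and 50 after each annotated start, RefSeq, GRCm38.p6) were searched on both strands for TGACNNNGC, the core of an antioxidant response element, and for TGANTCA, the related AP-1 site. Of 32851 windows genome-wide, 12.4% held the first motif and 7.81% the second. Windows were at hand for 7 of the 10 genes, 12 windows in all, and none for Gclc, Gsr and Hmox1, which were therefore not searched. The response element core was found for 3 of the 7, Gclm, Txnrd1 and Srxn1. Counted by window, as the genome-wide share is, these were 3 of the 12 windows. Matches are a description of letters and not of binding. The 250 bases before the start of those 3 genes are printed 5′ to 3′ on the plus strand, which is the coding strand of each, with matches in capitals. In Gclm (chr3:122245307-122245556) the core reads TGACGGTGC on the opposite strand at -134 to -126 from the start, and in Txnrd1 (chr10:82858956-82859205, 1 of its 3 windows) TGACAAAGC at -92 to -84. In Srxn1 (chr2:152105274-152105523) the core as searched lies after the start, at 29 to 37. In its printed bases the capitals mark AP-1 matches at -102 to -96 and -45 to -39. Forms of the core other than TGACNNNGC were not searched for.
Gclm: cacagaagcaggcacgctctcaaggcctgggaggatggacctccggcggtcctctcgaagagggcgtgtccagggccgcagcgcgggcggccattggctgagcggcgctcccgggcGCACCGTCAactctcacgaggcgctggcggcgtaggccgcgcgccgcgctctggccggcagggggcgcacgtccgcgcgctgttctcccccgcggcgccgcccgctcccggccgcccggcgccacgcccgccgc
Txnrd1: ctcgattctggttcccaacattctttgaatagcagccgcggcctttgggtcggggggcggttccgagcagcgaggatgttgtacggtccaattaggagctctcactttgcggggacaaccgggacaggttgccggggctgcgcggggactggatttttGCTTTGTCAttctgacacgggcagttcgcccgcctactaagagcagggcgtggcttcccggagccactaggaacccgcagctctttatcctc
Srxn1: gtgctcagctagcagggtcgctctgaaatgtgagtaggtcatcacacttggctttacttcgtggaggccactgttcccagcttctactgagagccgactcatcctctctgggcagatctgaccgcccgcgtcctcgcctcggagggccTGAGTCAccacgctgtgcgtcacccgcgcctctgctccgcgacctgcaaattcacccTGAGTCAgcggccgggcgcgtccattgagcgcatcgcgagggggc

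The ligase subunits and Hmox1 were highest in DM+Met, Gpx4 was highest in CM, and the other 6 genes showed no difference that passed the test in any comparison. Between DM and CM, 2 of the 10 genes were called (limma, Benjamini-Hochberg adjusted p below 0.05 over all tested rows), Gclc upward and Gpx4 downward, where 16.9% of all tested rows were called, 7.8% upward and 9.07% downward. Between DM+Met and CM, 3 of 10 were called, all upward (Gclc, Gclm and Hmox1), beside 15.3% of all rows in either direction, 6.92% upward and 8.36% downward. Between DM+Met and DM none was called by limma, where 0.0548% of all rows were called (0.0392% upward and 0.0157% downward). In that comparison 3 of the 10 genes (Gclc, Gclm and Hmox1) had an unadjusted p under 0.05, beside 9.69% of all rows, and limma-voom also called none. The same count was 2 in DM against CM (32.7% of rows) and 5 in DM+Met against CM (30.3%). Each medium enters 2 of the 3 comparisons, so they share libraries and their values are not independent of each other.

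**Figure D1:**
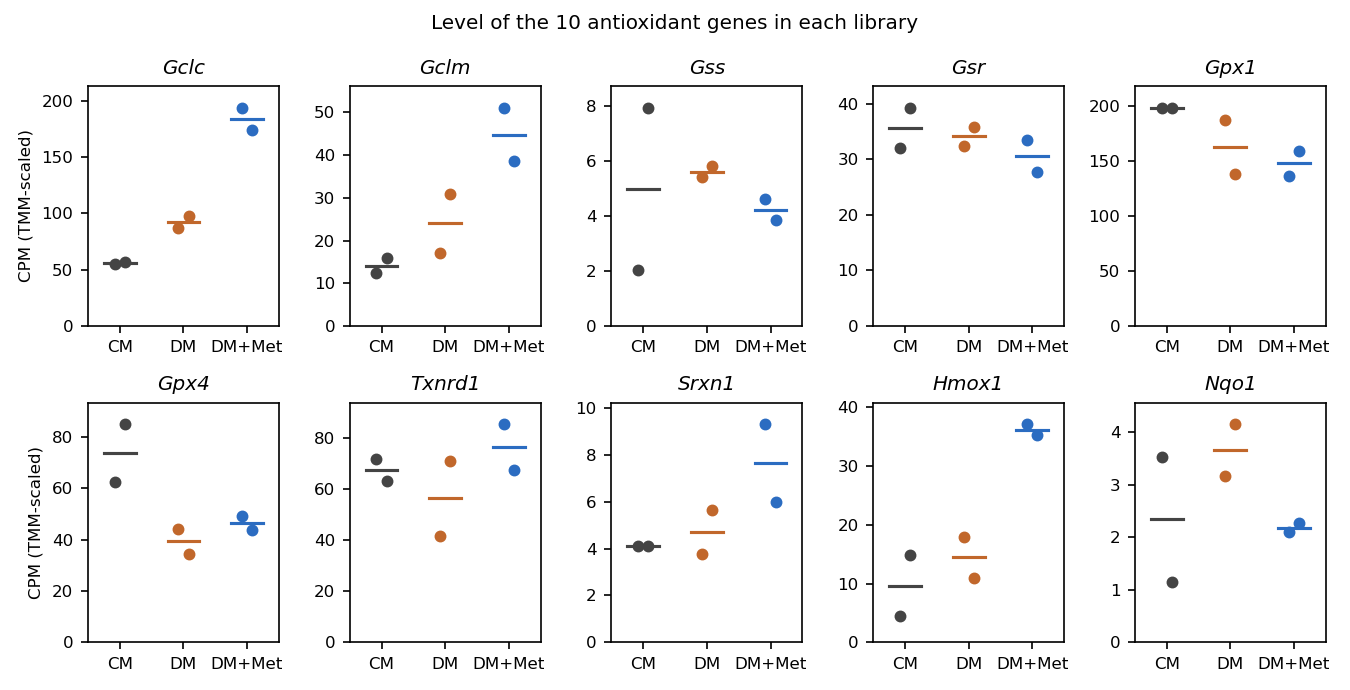
Level of each of the 10 genes in each of the 6 libraries, in CPM after TMM scaling on linear axes that start at 0, by medium. Points are libraries and bars the mean of 2. Both DM+Met libraries lie above both DM libraries, and both DM above both CM, for Gclc and Gclm. Gpx4 lies lower in DM and DM+Met than in CM.

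Of the enzymes that make glutathione, Gclc, the catalytic subunit of the ligase (chr9:77754535-77794485, plus strand, mm10), was higher in DM than in CM and higher again in DM+Met. It stood at 54.99 and 56.6 CPM in CM, 87.2 and 97.9 CPM in DM, and 194 and 174 CPM in DM+Met, from 442 to 2314 reads per library. No groups overlapped: each medium held its own range, and the mean CPM was 1.66 times the CM level in DM and 3.30 times in DM+Met. On the log2(CPM + 1) scale, DM exceeded CM by 0.72 (SE 0.18, limma adjusted p = 0.0252) and DM+Met exceeded CM by 1.70 (SE 0.18, adjusted p = 3.62e-04). The step from DM to DM+Met was 0.98 (SE 0.18, 95% interval 0.58 to 1.39), with an unadjusted p of 3.08e-04 and an adjusted p of 0.158. The difference of DM+Met from CM was called in each of 10 alternative settings and in each of 4 fits that left out 1 library. The difference of DM from CM was lost without any one of CM library 1, CM library 2, DM library 1 or DM library 2, with log2 changes of 0.64 to 0.80 and adjusted p from 0.0525 to 0.105. The step from DM to DM+Met reached an adjusted p of 0.0299 only with scaling to library totals, where it was 1.35.

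Gclm, the modifier subunit (chr3:122245557-122270732, plus strand), followed the same order of media from fewer reads. Its level was 12.4 and 15.9 CPM in CM, 17.1 and 31.0 CPM in DM, and 51.1 and 38.5 CPM in DM+Met, from 109 to 610 reads. The media did not overlap, but the DM libraries lay far apart, with DM library 1 close to CM. DM+Met exceeded CM by 1.59 on the log2 scale (SE 0.36, limma adjusted p = 0.0168), a ratio of mean CPM of 3.17. The difference of DM from CM was 0.68 (95% interval -0.13 to 1.49, adjusted p = 0.229) and that of DM+Met from DM 0.91 (0.10 to 1.73, adjusted p = 0.455). The call between DM+Met and CM was lost when any one of CM library 1, CM library 2, DM+Met library 1 or DM+Met library 2 was left out, at log2 changes of 1.39 to 1.79 and adjusted p from 0.0665 to 0.238. Leaving out DM library 1 set the difference of DM from CM at 1.09 and leaving out DM library 2 at 0.27, neither of which passed the test. The reads of Gclm may include those of Gm17494 on the opposite strand and of Gm6061, whose annotations overlap it, since how the counting treated strand is not given in the sources used here.

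Gss, which completes glutathione, did not follow the ligase. It stood at 2.05 and 7.94 CPM in CM, 5.40 and 5.83 CPM in DM, and 4.61 and 3.86 CPM in DM+Met, from 18 to 66 reads. The CM libraries spanned every other value, so no difference from CM could be read. Both DM+Met libraries lay below both DM libraries, by 0.34 on the log2 scale with a 95% interval from -1.74 to 1.06 (adjusted p = 0.923). That interval is wider on either side than the step of 0.98 seen in Gclc, so a step of that size was not detectable here. Gss (chr2:155563181-155592810, minus strand) is overlapped by Acss2, Gssos1 and Gssos2 on the plus strand, and its reads may include theirs.

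Glutathione reductase, Gsr, which returns oxidized glutathione to its reduced form, showed nearly the same level in each medium. Its libraries stood at 32.0 and 39.3 CPM in CM, 32.4 and 35.9 CPM in DM, and 33.5 and 27.7 CPM in DM+Met, from 281 to 407 reads. The groups overlapped in all 3 comparisons. The log2 change was -0.05 in DM against CM (95% interval -0.66 to 0.55), -0.16 in DM+Met against DM and -0.21 in DM+Met against CM (-0.82 to 0.40), with adjusted p of 0.916, 0.916 and 0.646. These intervals leave room for a modest change in either direction, and the sign turned with the scaling: with library totals DM+Met lay 0.20 above DM and 0.17 above CM.

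Gpx4, the selenoenzyme that reduces lipid peroxides in membranes and so guards against ferroptosis, was lower in DM than in CM. It stood at 62.5 and 84.9 CPM in CM, 44.3 and 34.6 CPM in DM, and 49.2 and 43.9 CPM in DM+Met, from 392 to 663 reads. Both libraries of DM and both of DM+Met lay below both of CM, while DM and DM+Met overlapped. Gpx4 fell by 0.88 on the log2 scale from CM to DM (SE 0.25, limma adjusted p = 0.0401), to a mean CPM 0.536 times that of CM. The difference of DM+Met from CM was -0.64 (95% interval -1.20 to -0.08, adjusted p = 0.119) and that of DM+Met from DM 0.24 (-0.32 to 0.80, adjusted p = 0.829). The call between DM and CM held in 4 of 10 alternative settings. It was lost with any one of CM library 1, CM library 2, DM library 1 or DM library 2 left out, at log2 changes from -1.10 to -0.66 and adjusted p from 0.0759 to 0.180, and the sign stayed negative in each. A processed copy, Gpx4-ps2, shares sequence with Gpx4 (chr10:80047166-80056439, plus strand), so reads could be divided between them.

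Gpx1, the abundant soluble glutathione peroxidase (chr9:108338903-108340343, plus strand), had 1549 to 1901 reads per library. It was at 199 and 198 CPM in CM, 187 and 138 CPM in DM, and 136 and 160 CPM in DM+Met. Both reduced media lay below CM and overlapped each other. The log2 change was -0.30 in DM against CM (95% interval -0.72 to 0.12, adjusted p = 0.300) and -0.43 in DM+Met against CM (-0.85 to -0.005, adjusted p = 0.161), neither of which passed the test. With scaling to library totals the latter was -0.03. Gpx1 is also abundant in red blood cells, and erythroid markers were read beside it. Their summed level was 86.1 to 95.02 CPM in CM, 42.4 to 75.1 in DM and 21.5 to 24.5 in DM+Met, and 3 of the 4 tested markers were lower in DM+Met than in CM (Hba-a1, Hbb-bs and Hbb-bt), of which 0 to 1 kept the call with 1 library left out. In DM against CM limma and limma-voom called none, where 2 were lower at an unadjusted p under 0.05. Their part in the levels of Gpx1, and of the other genes described here, was not tested.

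In the thioredoxin arm, Txnrd1, the selenoenzyme that keeps thioredoxin reduced (chr10:82833951-82897712, plus strand), did not pass the test in any comparison. It stood at 71.9 and 63.1 CPM in CM, 41.8 and 71.0 CPM in DM, and 85.3 and 67.6 CPM in DM+Met, from 410 to 1019 reads. The groups overlapped throughout, and DM library 1 was the lowest of the 6. The log2 change was -0.30 in DM against CM (95% interval -0.91 to 0.31, adjusted p = 0.489), 0.47 in DM+Met against DM (-0.14 to 1.08, adjusted p = 0.632) and 0.17 in DM+Met against CM (adjusted p = 0.719). Without DM library 1 the first of these was 0.08. The annotations of Gm38560, Gm47073 and Eid3 overlap Txnrd1.

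Srxn1, sulfiredoxin, which repairs overoxidized peroxiredoxins (chr2:152105516-152111376, plus strand), was read 32 to 111 times per library. Its level was 4.10 CPM in both CM libraries, 3.77 and 5.65 CPM in DM, and 9.30 and 5.96 CPM in DM+Met. Both DM+Met libraries were above all 4 others. The log2 difference was 0.59 from DM (95% interval -0.61 to 1.79, adjusted p = 0.791) and 0.73 from CM (-0.46 to 1.93, adjusted p = 0.400), so the test did not call it at this depth. Of the 3 genes with a response element core in a promoter window, Gclm was thus called against CM and Txnrd1 and Srxn1 were not. Gclc and Hmox1, also called in DM+Met against CM, had no window to search.

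Of the inducible detoxification enzymes, Hmox1, heme oxygenase, which breaks down free heme and is a target of both NRF2 and BACH1 (chr8:75093621-75100589, plus strand), had the highest ratio of DM+Met to CM of the 10 genes. It stood at 4.44 and 14.9 CPM in CM, 18.0 and 11.0 CPM in DM, and 37.0 and 35.2 CPM in DM+Met, from 39 to 442 reads. The DM+Met libraries agreed closely with each other and lay above the other 4, while CM and DM overlapped and the CM libraries differed widely. DM+Met exceeded CM by 2.00 on the log2 scale (SE 0.52, limma adjusted p = 0.0289), a ratio of mean CPM of 3.74. The difference of DM+Met from DM was 1.30 (95% interval 0.15 to 2.45, adjusted p = 0.451) and that of DM from CM 0.70 (-0.45 to 1.85, adjusted p = 0.388). The CM libraries decided the size of the differences from CM. Without CM library 1, DM+Met exceeded CM by 1.23 (adjusted p = 0.140) and DM differed from CM by -0.08. Without CM library 2 the values were 2.77 (adjusted p = 0.0237) and 1.47. The call against CM was also lost without DM+Met library 1 (1.96, adjusted p = 0.253) or DM+Met library 2 (2.03, adjusted p = 0.245), and it held in 6 of 10 alternative settings.

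Hmox1 is strongly expressed by macrophages, and 10 myeloid markers were read beside it. Their summed level was 38.8 to 58.0 CPM in CM, 55.5 to 81.0 in DM and 72.5 to 78.4 in DM+Met, so CM and DM overlapped in part and DM+Met lay above CM. By limma 1 of 9 tested markers was called (none by limma-voom), Lyz2 in DM against CM (log2 change 2.13, adjusted p = 0.0355), from 3 and 15 reads in CM, 77 and 85 reads in DM, and 50 in each DM+Met library. That call was lost without CM library 1, DM library 1 or DM library 2 (1.57 to 2.69 over the 4 fits). At an unadjusted p under 0.05 (limma), 2 of the 9 markers were higher in DM+Met than in CM and none was lower. Their part in the level of Hmox1 was not tested.

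Nqo1, the quinone reductase often used as a readout of NRF2 (chr8:107388225-107403206, minus strand), was read few times. It stood at 3.53 and 1.15 CPM in CM, 3.16 and 4.15 CPM in DM, and 2.09 and 2.27 CPM in DM+Met, from 9 to 47 reads, beside a floor of 0.251 to 0.384 CPM that a count of 0 allows (3 reads, counting error only). It did not share the order of media of Gclc, Gclm and Hmox1: both DM+Met libraries lay below both DM libraries and within the CM range. The log2 difference of DM+Met from DM was -0.54 (95% interval -1.88 to 0.79, adjusted p = 0.839) and that from CM 0.03 (-1.31 to 1.36, adjusted p = 0.989).

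**Figure D2:**
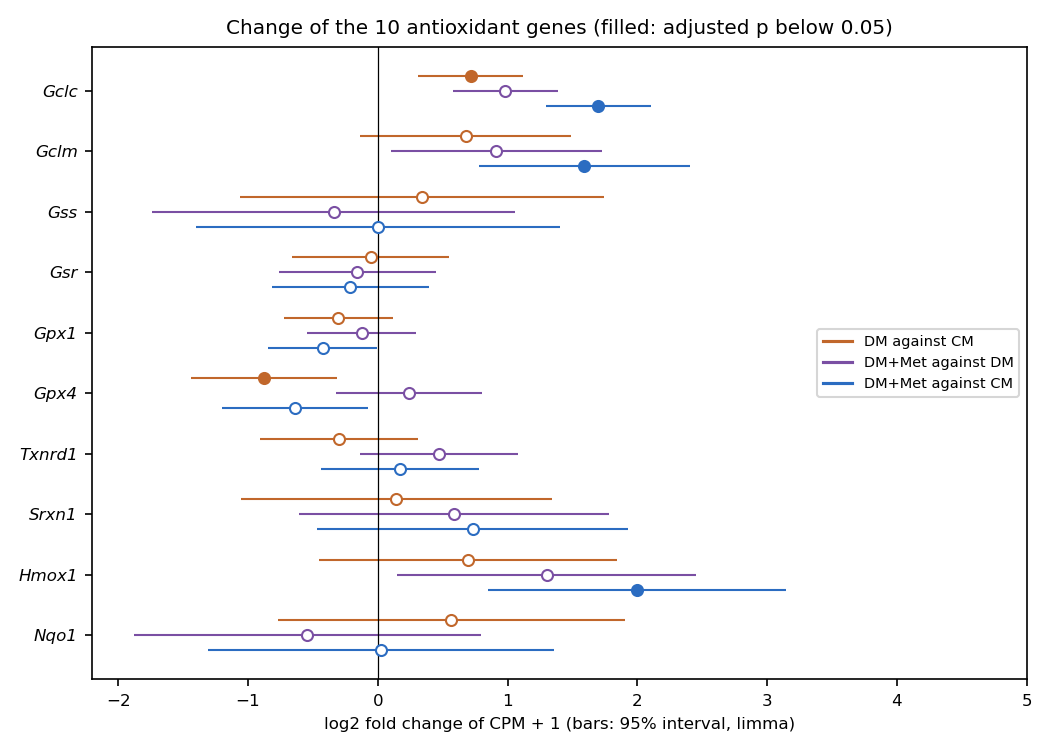
Log2 fold change of CPM + 1 for each gene in the 3 comparisons, with bars for the 95% interval from limma. Filled points have an adjusted p below 0.05: Gclc and Gpx4 in DM against CM, and Gclc, Gclm and Hmox1 in DM+Met against CM. No point of DM+Met against DM is filled, though the intervals of Gclc, Gclm and Hmox1 lie above 0.

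The groups were also compared library by library. Both DM libraries were above both CM libraries for 2 of the 10 genes (27.9% of all tested rows) and below for 2 (26.2%). Both DM+Met libraries were above both DM libraries for 4 genes, Gclc, Gclm, Srxn1 and Hmox1 (20.4% of rows), and below for 2, Gss and Nqo1 (20.6%). Against CM, the same 4 genes were above in DM+Met (32.2% of rows), and Gpx1 and Gpx4 below (28.7%). The median log2 change of the 10 genes was 0.24 in DM against CM, 0.36 in DM+Met against DM and 0.10 in DM+Met against CM, beside 0.07, 0.009 and 0.06 over all tested rows. The first median turned to -0.14 without CM library 1 and ran up to 0.37 without DM library 1. Over the fits without 1 library, the second ran from 0.22 to 0.48 and the third from 0.035 without DM+Met library 1 to 0.41 without CM library 1, and with library totals the third was 0.44.

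The proteins that set NRF2 activity are regulated largely after transcription, so their mRNA levels are given as a description of the machinery. Nfe2l2 itself stood at 46.8 and 90.8 CPM in CM, 89.0 and 75.7 CPM in DM, and 105 and 93.3 CPM in DM+Met. The DM+Met libraries were the highest, and the log2 difference from CM was 0.60 (95% interval -0.05 to 1.24, adjusted p = 0.198). Keap1, which targets NRF2 for degradation, stood at 70.1 and 79.8 CPM in CM, 112 and 102 CPM in DM, and 82.5 and 80.3 CPM in DM+Met. Keap1 was thus highest in DM, without passing the test (DM against CM 0.51, adjusted p = 0.0910, and DM+Met against DM -0.39, adjusted p = 0.549).

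Bach1, the repressor that competes at Hmox1, stood at 12.4 and 15.7 CPM in CM, 23.1 and 24.6 CPM in DM, and 35.8 and 31.1 CPM in DM+Met. It rose in DM+Met against CM by 1.20 on the log2 scale (SE 0.32, limma adjusted p = 0.0314), while DM against CM was 0.73 (adjusted p = 0.141). The mRNA of this repressor was thus highest in the same medium as that of Hmox1. Slc7a11, the cystine carrier that feeds glutathione synthesis and is itself an NRF2 target, had 32 and 0 reads in CM, 33 and 66 reads in DM, and 79 and 93 reads in DM+Met. Both DM+Met libraries were the highest, and the CM libraries differed widely, and no comparison was called (DM+Met against CM adjusted p = 0.113, DM+Met against DM adjusted p = 0.871).

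Of 11 regulators of the pathway, 2 rose in DM against CM and 4 in DM+Met against CM, beside 7.8% and 6.92% of all tested rows. None of the 11 fell by limma or limma-voom, where 9.07% and 8.36% of all rows fell by limma, and none was lower at an unadjusted p under 0.05. Nfe2l1, an NRF2 relative known for restoring proteasome genes, went from 37.1 and 32.5 CPM in CM to 96.8 and 92.9 CPM in DM and 90.3 and 89.5 CPM in DM+Met (log2 change 1.42, adjusted p = 0.00199, and 1.35, adjusted p = 0.00206). Bach2, a relative of BACH1 known for restraining T cell effector programs, rose by 0.89 in DM (adjusted p = 0.00736) and 0.80 in DM+Met (adjusted p = 0.0112). Sqstm1, the autophagy adaptor that can sequester KEAP1, was the remaining call (0.72 in DM+Met against CM, adjusted p = 0.0187), named after its value was seen. With 1 library left out, 1 to 2 of the 11 were called in DM against CM and 0 to 2 in DM+Met against CM. Nfe2l1 kept its call in DM against CM whichever of those 4 libraries was left out, and lost that in DM+Met without DM+Met library 1 or 2 (1.25 to 1.44 over the 4 fits). Bach2 lost its call in DM without CM library 2 or DM library 2 (0.75 to 1.02). The Bach1, Bach2 and Sqstm1 calls in DM+Met were lost without any one library of CM or DM+Met, at log2 changes of 1.04 to 1.36, 0.67 to 0.93 and 0.58 to 0.86.

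Of 20 other genes that NRF2 is known to activate, 1 rose and 4 fell in DM by limma, beside 7.8% and 9.07% of all rows. There limma-voom called none higher and 4 lower. In DM+Met against CM none rose and 4 fell by limma (6.92% and 8.36% of all rows), where 2 were higher and 7 lower at an unadjusted p under 0.05 and limma-voom called 4 lower and none higher. With library totals, 2 rose and 2 fell in DM+Met. Tkt, transketolase of the pentose phosphate pathway, stood at 250 and 276 CPM in CM, 101 and 56.2 CPM in DM, and 70.0 and 88.1 CPM in DM+Met (log2 change -1.79, adjusted p = 0.00238, and -1.73, adjusted p = 0.00229). Txn1, thioredoxin, fell from 582 and 393 CPM in CM to 188 and 197 in DM (-1.31, adjusted p = 0.00259) and stood at 215 and 255 in DM+Met (-1.03 against CM, adjusted p = 0.00747). Blvrb, biliverdin reductase B, fell by 1.84 in DM (adjusted p = 0.0270) and by 1.85 in DM+Met (adjusted p = 0.0281), while Ephx1, an epoxide hydrolase, rose by 1.08 in DM (adjusted p = 0.0490). The other gene that fell was Slc48a1, a heme transporter (-0.93 and -0.85), named after its values were seen. It lost its call in DM without CM library 1 or 2 (-1.11 to -0.76 over the 4 fits) and in DM+Met without any one library (-0.86 to -0.83). The list's median log2 change was -0.50, 0.06 and -0.34 in the 3 comparisons. With 1 library left out, 1 to 2 genes of this list still fell in DM against CM and 0 to 1 in DM+Met against CM. In DM, Tkt lost its call only without CM library 1 (-2.21 to -1.37 over the 4 fits) and Txn1 without DM library 1 or 2 (-1.59 to -1.03), while Blvrb (-2.07 to -1.62) and Ephx1 (0.88 to 1.27) lost theirs without any one library. In DM+Met, Tkt (-1.89 to -1.57) kept its call only without CM library 1, Txn1 (-1.31 to -0.74) only without CM library 2, and Blvrb (-2.21 to -1.49) in no such fit.

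Of 22 tested of 23 other enzymes that handle peroxides and disulfides, 2 rose and 6 fell in DM, and 1 rose and 8 fell in DM+Met against CM, beside the same shares of all rows. With library totals, 4 rose and 5 fell in DM+Met. By limma-voom 1 rose and 5 fell in DM, and 1 rose and 7 fell in DM+Met against CM. Txnip, which binds and inhibits thioredoxin, rose in both, at 115 and 88.8 CPM in CM, 374 and 343 CPM in DM, and 274 and 322 CPM in DM+Met (log2 change 1.82, adjusted p = 3.57e-04, and 1.55, adjusted p = 5.18e-04). It kept its call without any one library in both comparisons. Msrb2, a mitochondrial methionine sulfoxide reductase, rose by 2.46 in DM (adjusted p = 0.0134), from 11 reads in each CM library to 144 and 108.

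The peroxiredoxins Prdx2 and Prdx5, which reduce hydrogen peroxide through thioredoxin, fell in DM by 1.33 (adjusted p = 0.00259) and 1.34 (adjusted p = 0.00475), and Prdx5 by 1.67 in DM+Met (adjusted p = 0.00137). Prdx2 was also called in DM+Met against CM (-1.355, limma adjusted p = 0.00193), named there after its value was seen. Glrx, glutaredoxin, which removes glutathione from proteins, fell by 1.91 in DM+Met against CM (adjusted p = 0.00254), from 63.0 and 62.9 CPM to 19.2 and 13.4. Glrx was also called in DM against CM (-1.292, limma adjusted p = 0.0171), named there after its value was seen. Gpx7, a peroxidase of the endoplasmic reticulum, had 30 and 26 reads in CM and 0 in both DM libraries, at least 11.8-fold lower against a floor of 3 reads per library. Gpx7 had 2 and 0 reads in DM+Met and was also called there against CM (-2.02, limma adjusted p = 0.0309). That call was lost without any one library of CM or DM+Met (-2.13 to -1.91). With 1 library left out, the list held 2 to 4 genes that fell in DM and 0 to 4 in DM+Met. In DM, Prdx2 kept its call in all such fits, Prdx5 lost it only without CM library 1, Gpx7 without CM library 1 or 2, and Msrb2 (2.18 to 2.75) in all but the fit without DM library 2. In DM+Met, Glrx (-2.16 to -1.66) and Prdx5 (-1.77 to -1.58) lost theirs only without DM+Met library 2. The call of Prdx2 in DM+Met (-1.45 to -1.26) was lost without DM+Met library 1 or 2, and that of Glrx in DM (-1.42 to -1.16) without any one library.

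Of 25 genes of glutathione transfer, turnover and transport, 23 were tested. In DM none was called higher and 5 were called lower by limma, beside 7.8% and 9.07% of all rows. In DM+Met against CM none was called higher and 3 were called lower (6.92% and 8.36% of all rows). At an unadjusted p under 0.05, 2 were higher in each of these comparisons, and limma-voom called none higher. Gstt2, a theta-class transferase, stood at 131 and 114 CPM in CM, 20.8 and 22.1 CPM in DM, and 9.04 and 15.5 CPM in DM+Met (log2 change -2.46, adjusted p = 0.00119, and -3.26, adjusted p = 1.92e-04), and it kept both calls without any one library. Gstt1 had 87 and 90 reads in CM, 0 and 6 reads in DM, and 0 in both DM+Met libraries, where it was at least 42.6-fold lower than in CM against a floor of 3 reads per library. Gstm1, a mu-class transferase, had 45 and 33 reads in CM, 0 and 2 reads in DM, and 6 and 42 reads in DM+Met, and only the difference of DM from CM was called (adjusted p = 0.0339). Gstk1, the mitochondrial kappa-class enzyme, fell by 1.90 in DM+Met against CM (adjusted p = 0.0475). Reads of Gstt1, Gstt2 and Gstm1 could be divided with close relatives in their families. With 1 library left out, 2 to 3 genes of the list fell in DM and 1 to 2 in DM+Met. Gstt1 kept its call in DM in all such fits and lost that in DM+Met without DM+Met library 1 or 2, while Gstm1 (-2.50 to -2.27) and Gstk1 (-2.18 to -1.62) lost theirs without any one library.

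Since Gpx1, Gpx4 and Txnrd1 carry selenocysteine, 20 other selenoproteins and genes of selenocysteine synthesis were read beside them. In DM 1 rose and 2 fell by limma, beside 7.8% and 9.07% of all rows, whereas limma-voom called none higher and 1 lower. In DM+Met 1 rose and 1 fell against CM, beside 6.92% and 8.36% of all rows. Secisbp2, which directs selenocysteine insertion, stood at 29.7 and 25.1 CPM in CM, 81.8 and 44.6 CPM in DM, and 66.2 and 65.8 CPM in DM+Met (log2 change 1.12, adjusted p = 0.0304, and 1.24, adjusted p = 0.0208). Without DM library 1 the former was 0.69 and not called, and it was called only in the fit without DM library 2 (1.55). The latter was lost without any one library (1.13 to 1.36). Selenoh, listed under its older symbol 2700094K13Rik, went from 105 and 97.8 CPM in CM to 33.6 and 25.8 CPM in DM and 25.05 and 27.8 CPM in DM+Met (-1.75, adjusted p = 0.00199, and -1.90, adjusted p = 0.00105), and it kept both calls without any one library. Selenon, listed as Sepn1, fell by 2.08 in DM (adjusted p = 0.0402), from 54 and 29 reads to 0 and 10, and lost its call without any one library (-2.54 to -1.62). The list's median log2 change was 0.007 in DM against CM and -0.04 in DM+Met against CM, beside 0.07 and 0.06 over all rows.

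**Figure D3:**
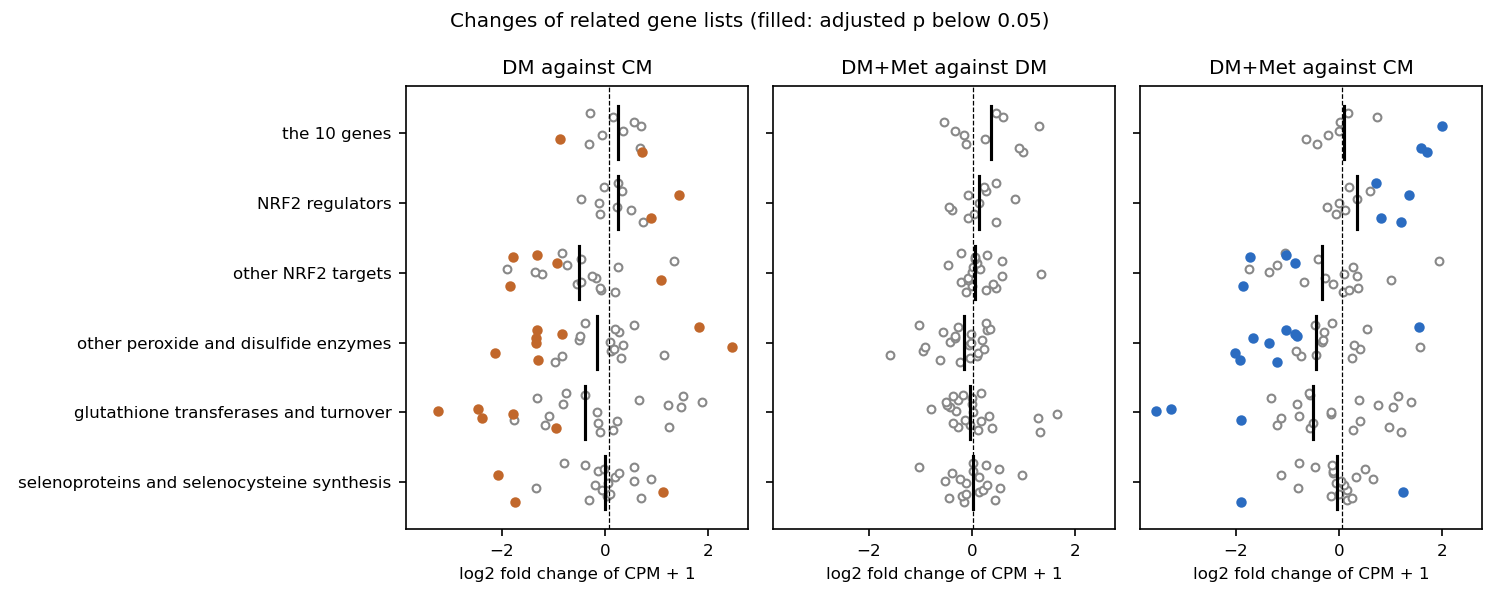
Log2 fold change of CPM + 1 for the 10 genes and for each of the 5 related lists in the 3 comparisons, 1 point per tested gene, with filled points for an adjusted p below 0.05, a bar for the median of the list and a dashed line for the median of all tested rows. No point is filled in DM+Met against DM, and filled points of transferases and turnover enzymes lie on the negative side of both comparisons with CM.

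Between DM+Met and DM, none of the 93 tested genes of these 5 lists was called by limma or by limma-voom. At an unadjusted p under 0.05, 5 were higher and 3 lower. Markers of other cells had no one pattern: B cell markers summed to 80.8 to 95.3 CPM in CM, 75.8 to 76.1 in DM and 57.6 to 65.8 in DM+Met, with Pax5 at 0 everywhere, and CD8 T and NK cell markers to 73.4 to 77.2, 30.6 to 39.4 and 34.1 to 37.3. Called among them were Cd22, lower in DM+Met than in CM, and Cd8a, lower in both reduced media, while Klrb1c was higher in DM+Met than in CM by limma and not by limma-voom. Each of these calls was lost without any one library of the media compared. Their part in the differences from CM was not tested.

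**Figure D4:**
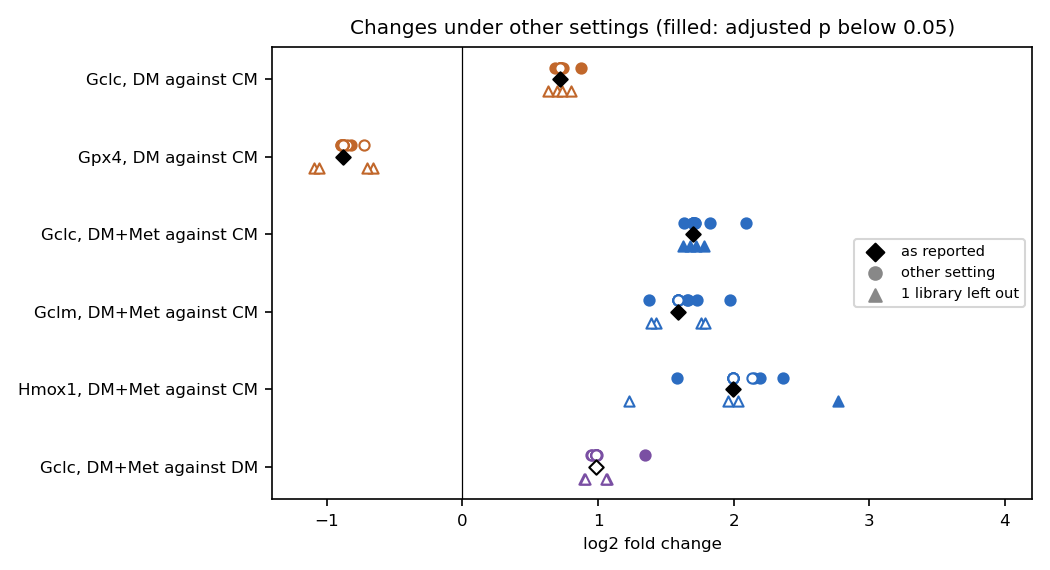
Log2 fold change of the 4 called genes, and of Gclc between DM+Met and DM, as reported (diamonds), under each alternative setting (circles) and with 1 library left out (triangles), filled where the adjusted p was below 0.05. The values of Gclc in DM+Met against CM stayed between 1.62 and 2.09, whereas those of Hmox1 ran from 1.23 without CM library 1 to 2.77 without CM library 2.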

How the data were processed

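RNA of 3 media (CM, DM and DM+Met, 2 libraries each) was read with the Lexogen QuantSeq kit for 3′ ends, which reads each transcript near its poly(A) tail, so that counts do not grow with transcript length. The deposited values are log2 values of TMM-scaled CPM plus 1, to 3 decimals. Base and offset were worked out here from the spacing of low values. The submitters' processing notes name Bowtie2, bedtools and genome build mm10. Annotation and strand handling are not given in the sources used here. Values moved in equal steps, which gave the whole reads behind them: 99.89% or more of each library's values up to 300 reads came within 0.1 of an integer. Reads carry no molecular identifiers, so floors cover counting error only. The libraries of a medium differed by more than sampling noise (chi-square per degree of freedom 18.2 to 35.9), so each was counted.

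All 6 libraries entered one linear model without covariates (limma 3.58.1 in R 4.3.3, with an intensity trend and 6.87 prior degrees of freedom), two-sided, with Benjamini-Hochberg adjustment over 12770 rows and a threshold of 0.05. A row entered the test with 0.946 CPM (10 reads at the median effective depth) in 2 or more libraries and 15 reads in all. Every adjusted p for a gene comes from this fit unless stated otherwise. A fold change on the log2(CPM + 1) scale understates changes at low levels. Repeat rows of a symbol (44) were kept apart. The model was tested on data simulated with the same spread setting for every gene, which need not match the spread between these libraries. Gene coordinates are from GENCODE M21 (mm10), and promoter sequences from RefSeq (GRCm38.p6). The genes, related lists and markers were chosen with earlier results of these data known. Named in every comparison are the 10 genes, Nfe2l2, Keap1, Bach1 and Slc7a11, and from each related list the called genes, at most 3 that rose furthest and 3 that fell furthest per comparison; others are stated to be named after their values were seen. Alternatives were 2 other scalings, 2 pseudocounts, 2 filters, limma-voom on the recovered reads, a fit of only the media compared, a fit without the trend, the library number as a block, and each library left out, where a medium left with 1 library is assumed to vary like the others. Figures were drawn with matplotlib 3.10.9.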

Additional observations from a re-analysis of the deposited data

How the results depend on the processing

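Of 297 values of the 10 genes under other settings, 278 kept their direction and their side of the threshold, 13 lost the call, 1 gained it and 5 turned sign. With 1 library left out, 96 kept both, 15 lost the call and 9 turned sign. No value that turned sign had been called. The 2 genes called in DM against CM became 1 with library totals, with library totals without Rn45s, without a filter and with the library number as a replicate block, and 0 in a fit of only the media compared, without the intensity trend, and without any one library. For DM+Met against DM, the 0 calls became 1 with library totals and stayed 0 with any library left out. For DM+Met against CM, the 3 calls became 2 with a pseudocount of 0.1, without a filter and in a fit of only the media compared, 1 without the trend, and 1 to 2 with a library left out. Over all rows, DM against CM (2154) gave 795 in a fit of only the media compared, 1329 without the trend and 541 to 1061 with a library left out. DM+Met against DM (7) gave 55 with library totals, 13 with a pseudocount of 5, 2 without a filter, 17 with the filter set on the mean log2 value (2 or more), 21 with limma-voom, 0 in a fit of only the media compared, 0 without the trend and 0 with a library left out. DM+Met against CM (1952) gave 1265 without a filter, 944 without the trend and 268 to 873 with a library left out. Library totals moved the median log2 change of all rows in DM+Met from 0.009 to 0.34 (against DM) and from 0.06 to 0.41 (against CM), and the share of higher calls from 71.4% to 92.7% and from 45.3% to 76.3% (57.4% without Rn45s); in DM against CM that share was 46.2%, and 59.6% with totals without Rn45s.

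Gsr turned to 0.20 (DM+Met less DM) and 0.17 (DM+Met against CM), and Gpx1 to 0.24 (DM+Met against DM), with library totals. With totals without Rn45s, Gsr in DM against CM turned to 0.10, and with a pseudocount of 5, Nqo1 in DM+Met against CM to -0.013. With 1 library left out, DM against CM ranged from -0.44 to 1.12 for Gss, -0.20 to 0.091 for Gsr, -0.68 to 0.075 for Txnrd1, -0.10 to 0.38 for Srxn1 and -0.076 to 1.47 for Hmox1; DM+Met against DM ranged from -0.34 to 0.10 for Gpx1; and DM+Met against CM from -0.51 to 0.56 for Nqo1. Nqo1 has no value with the filter on the mean. The cause of these changes was not tested. Nothing in the labels says whether the numbers in the library names pair samples across media. Deviations of same-numbered libraries from their medium mean were nearly uncorrelated (-0.02, 0.005 and -0.03), which cannot show that their origins were separate. The replicate block gave 1947, 7 and 1797 called rows. With 2 libraries per medium and 9 to 2314 reads per gene, modest changes of Gss, Srxn1 and Nqo1 were not detectable.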
